A study of Mus musculus with 40 samples.

Results

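The genes described here encode 10 receptors that set how strongly a T cell responds to its antigen: the inhibitory receptors Pdcd1 (PD-1), Ctla4, Havcr2 (TIM-3), Lag3, Tigit, Btla and Cd160, the costimulatory receptors Cd28 and Icos, and Cd200, the ligand of an inhibitory receptor. They were chosen by name, and all 10 were found once each among the 39179 genes of the deposited RNA table. RNA was sequenced in 18 libraries of CD4 T cells from mouse spleen, in a study of the histone methyltransferase SETDB1, whose product, trimethylated lysine 9 of histone H3 (H3K9me3), is found on silenced genes and repeats. The libraries fall into 6 groups. Naive cells (0 days of culture) came from C57BL/6 Setdb1-/- mice (3 libraries) and C57BL/6 Setdb1+/+ mice (4 libraries), called WT below. Th2 cells (3 libraries of each genotype) had 6 days of culture, with IL-4 at 50 ng/mL, antibodies that block IFN-gamma at 10 ug/mL, and stimulation by plate-bound anti-CD3 at 10 ug/mL together with anti-CD28 at 1 ug/mL, then IL-2 (30 IU/mL) in place of both stimulating antibodies from day 3. Th2-Th1 cells (3 Setdb1-/- and 2 WT libraries) were Th2 cells washed on day 6 and kept for 2 days with IL-12 (10 ng/mL) and anti-IL-4 (10 ug/mL), the conditions that favour T helper 1 cells. Chromatin was profiled in Setdb1-/- and WT cells and, for H3K9me3 alone, also in Th2 cells from Suv39h1-/- mice, which lack another H3K9 methyltransferase and for which no background strain is named. The labels give no age of the mice, do not name what drives the deletion of Setdb1, and do not tell whether the replicates of a group are different mice or cultures, so p-values measure the spread between these libraries, which may be technical.

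Inhibitory and costimulatory receptors act beside the T cell receptor. CD28 binds CD80 and CD86 on antigen-presenting cells and supplies the second signal of activation, and CTLA-4 binds the same ligands with higher affinity and damps it. ICOS, a relative of CD28 induced on activated cells, supports helper function through ICOS ligand. PD-1, LAG-3, TIM-3 and TIGIT appear after activation and are known together as checkpoint receptors, whose joint high expression marks exhausted T cells. BTLA and CD160 share a ligand, the TNF receptor family member HVEM (Tnfrsf14), and CD200 on the T cell acts on myeloid cells through its receptor. The genes Cd28, Ctla4 and Icos lie next to each other on mouse chromosome 1.

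Total reads per library were 36.3 to 44.7 M in Th2 libraries labelled Setdb1 KO and 10.1 to 13.3 M in Th2 WT libraries, 37.2 to 37.6 M in Th2-Th1 libraries labelled Setdb1 KO and 18.9 to 19.8 M in WT ones of that stage. Naive libraries labelled Setdb1 KO had 12.8 to 15.3 M and naive WT libraries 10.0 to 18.5 M. Depth therefore moved with the label in cultured cells, and so did the share of reads on ribosomal protein genes, 2.22 to 2.35% in Th2 libraries labelled Setdb1 KO against 6.29 to 7.09% in Th2 WT. With reads thinned to equal depth, no receptor gene changed its call in any of the 9 comparisons. Among naive libraries, KO replicate 2 and WT replicates 1 and 3 stood apart: after thinning, reads fell on 22195, 21283 and 25556 genes there and on 15114 to 18607 in each remaining library. Results on naive cells are given without these 3 as well for most calls and some sizes that changed. Sizes not listed may have moved too. Setdb1 itself went against the label after culture. Its value was 8485 ± 503 in Th2 libraries labelled Setdb1 KO and 823 ± 121 in Th2 WT (SD, n = 3 each). Th2-Th1 libraries labelled Setdb1 KO had 6244 ± 1020 (n = 3), against 1603 ± 12.1 (n = 2) for WT. In naive cells, libraries labelled Setdb1 KO had 1006 ± 87.2 (n = 3) and WT had 1310 ± 66.4 (n = 4). The table sums reads over the whole gene and does not separate a deleted part, so each group goes by its label here. None of 13 CD4 T cell markers was at 0 in all libraries of a group, but the list moved with the label after culture. It had 7 markers lower and 2 higher in Th2 libraries labelled Setdb1 KO, with a sum of 71700 to 80000 against 110900 to 117800 in Th2 WT, and 6 lower and 2 higher in Th2-Th1 libraries labelled Setdb1 KO, with 104100 to 124300 against 154000 to 160300 in WT. Of 8 naive T cell markers, 5 were lower and 1 higher in Th2 libraries labelled Setdb1 KO, summing to 15560 to 20920 against 36860 to 41350 in Th2 WT. Of all genes, 24.7% were lower and 29.3% higher in Th2 libraries labelled Setdb1 KO, and 16.1% and 17.6% in Th2-Th1 ones. The part of these changes in the receptor values was not tested. In RNA of a whole sample, a level cannot tell fewer cells of a type from less RNA per cell.

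**Figure D1:**
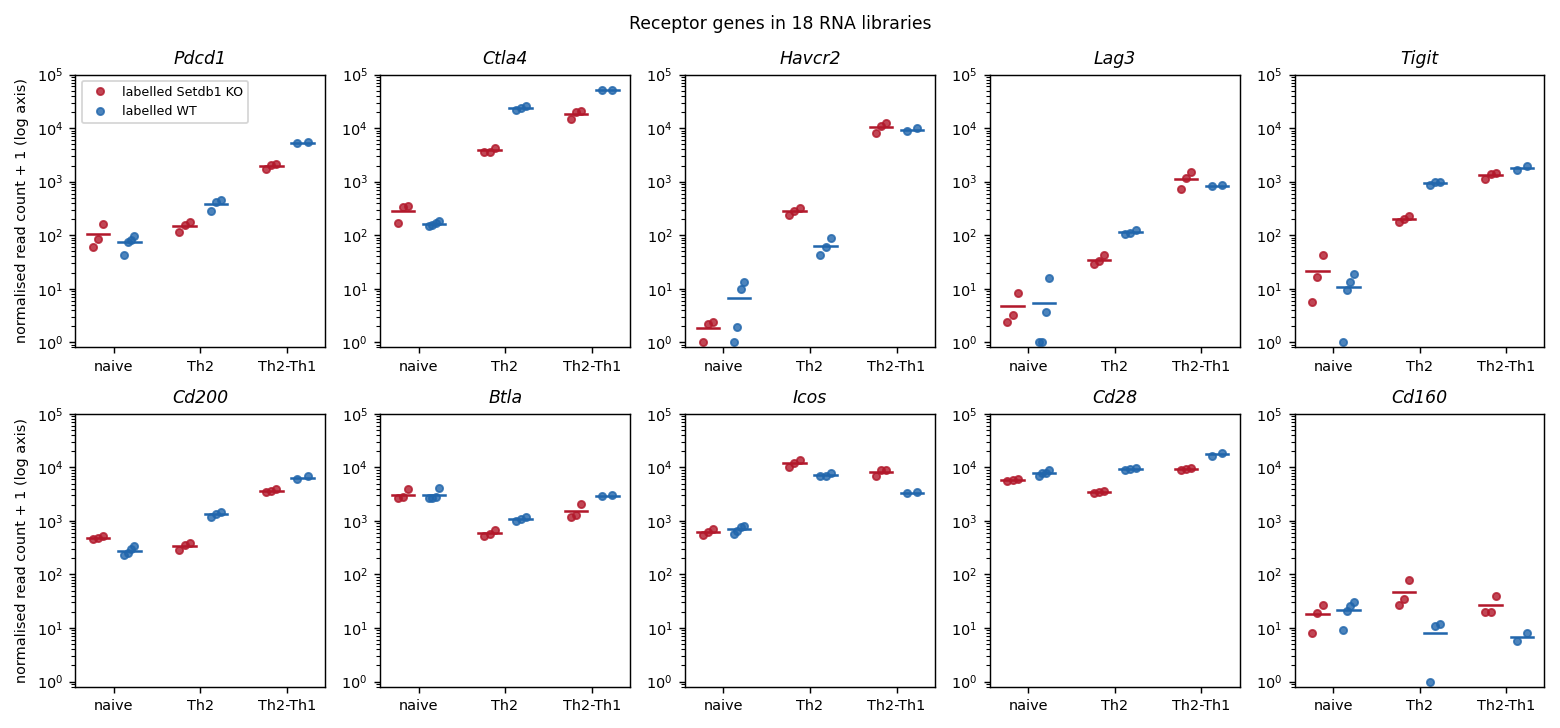
Normalised read count plus 1 (log axis) of the 10 receptor genes in naive, Th2 and Th2-Th1 cells; each point is a library, red for those labelled Setdb1 KO and blue for WT, and bars are group means. In Th2 cells the 3 libraries labelled Setdb1 KO lie below all 3 WT libraries for Ctla4, Cd200, Cd28, Tigit, Pdcd1, Btla and Lag3, and above them for Icos, Havcr2 and Cd160. Of all genes tested, 24.7% were called lower and 29.3% higher in this comparison, and the share without overlap is not given here.

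Levels are given as normalised read counts as the authors deposited them (reads divided by a size factor of the library). Log2 differences are on the log2(value + 1) scale with the standard error from limma, fitted over 17254 genes and all 18 libraries, and a gene was called at a Benjamini-Hochberg adjusted p under 0.05 over all of them. In Th2 cells, 9 of the 10 receptor genes differed between libraries labelled Setdb1 KO and WT. Ctla4, Cd200, Cd28, Tigit, Pdcd1 and Btla were lower and Icos, Havcr2 and Cd160 were higher. Calls were common in this comparison, with 24.7% of all genes lower and 29.3% higher, so 6 lower and 3 higher of 10 is to be read against that background. The median log2 difference of the receptor genes was -1.40, against 0.13 for all genes tested and 0.28 for all genes with TMM scaling, and no call among the receptors changed with that scaling.

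Ctla4, the inhibitory competitor of CD28, had the lowest log2 difference of the 10. Its values were 3634, 4306 and 3611 in Th2 libraries labelled Setdb1 KO, against 25434, 21367 and 24228 in Th2 WT libraries. The groups lay far apart, and the log2 difference was -2.62 ± 0.20 (limma, adjusted p = 2.09e-09). Cd28, its activating counterpart, was also lower, with 3355, 3429 and 3588 in libraries labelled Setdb1 KO against 8981, 9204 and 9560 in WT, a log2 difference of -1.42 ± 0.09 (limma, adjusted p = 2.40e-10). Icos, the third gene of the cluster, went the other way. It had values of 12131, 13830 and 10221 in libraries labelled Setdb1 KO against 6970, 7717 and 7050 in WT (log2 0.73 ± 0.14, limma, adjusted p = 2.62e-04). The ratio of reads within a library, which no scaling between libraries can alter, was 2.83 to 3.34 Icos reads per Ctla4 read in Th2 libraries labelled Setdb1 KO and 0.274 to 0.361 in Th2 WT. Gene length enters this ratio equally in every library, so it is compared across libraries only.

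**Figure D2:**
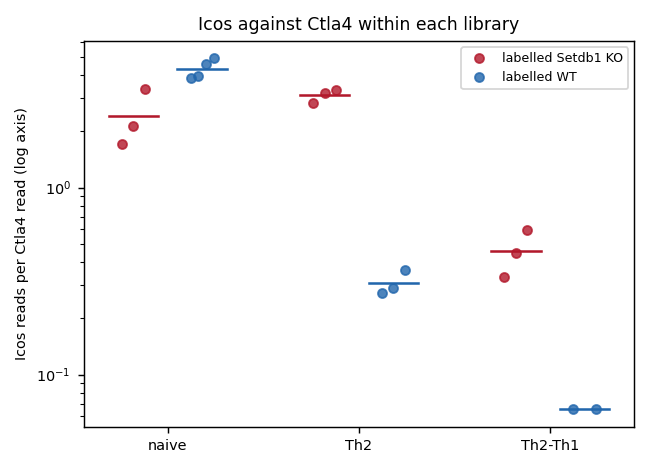
Icos reads per Ctla4 read in each RNA library (log axis); red points are libraries labelled Setdb1 KO, blue points WT, bars are group means. The libraries labelled Setdb1 KO lie above WT in Th2 cells (2.83 to 3.34 against 0.274 to 0.361) and in Th2-Th1 cells (0.333 to 0.595 against 0.0653 to 0.0658) and below WT in naive cells (1.71 to 3.36 against 3.88 to 4.92).

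Among the checkpoint receptors of Th2 cells, Pdcd1 and Tigit were lower and Havcr2 was higher. Pdcd1, which encodes the receptor of PD-L1 and PD-L2, had 173, 154 and 113 in libraries labelled Setdb1 KO against 454, 414 and 287 in WT (log2 -1.38 ± 0.31, limma, adjusted p = 9.09e-04). Tigit, whose product binds the poliovirus receptor PVR, had 174, 225 and 199.8 in libraries labelled Setdb1 KO, against 978, 867 and 1003 in WT (log2 -2.25 ± 0.76, limma, adjusted p = 0.0171). Neither pair of groups overlapped. Havcr2, which encodes a receptor of galectin-9 and phosphatidylserine, had 280.1, 314 and 233 in libraries labelled Setdb1 KO against 42.3, 59.4 and 87.3 in WT (log2 2.16 ± 0.67, limma, adjusted p = 0.0105). Lag3, a CD4-like receptor that binds MHC class II and FGL1, had 41.7, 32.2 and 28.0 in libraries labelled Setdb1 KO and 123, 102 and 109.8 in WT. The Lag3 groups did not overlap, but the log2 difference of -1.70 ± 0.75 was not called (limma, adjusted p = 0.0619). Counting models on the recovered reads did call it (edgeR quasi-likelihood, adjusted p = 0.0018, and DESeq2, 4.85e-06), as did limma with a pseudocount of 5 (0.00308).

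The remaining inhibitory genes split. Cd200 had 286, 359 and 383 in Th2 libraries labelled Setdb1 KO against 1206, 1351 and 1442 in Th2 WT (log2 -1.96 ± 0.14, limma, adjusted p = 4.79e-10). Btla, a naive-cell receptor of HVEM, had 519.7, 573 and 667 in libraries labelled Setdb1 KO against 998, 1071 and 1177 in WT (log2 -0.89 ± 0.20, limma, adjusted p = 8.23e-04). Cd160, which in mice marks cytotoxic and innate-like lymphocytes, was near the detection limit. It had 77.5, 34.5 and 26.0 in libraries labelled Setdb1 KO, from 324 reads in all, against 0, 11.1 and 9.98 in WT, from 10 reads in all. The Cd160 call (log2 3.05 ± 0.81, limma, adjusted p = 0.00347) was lost when only the Th2 libraries were fitted (adjusted p = 0.0662). Genes of CD8 and cytotoxic T cells, measured beside it, summed to 10900 to 17630 in libraries labelled Setdb1 KO and 25520 to 29350 in WT, with 2 of 10 tested higher and 2 lower. Of 11 such genes in the table, 3 were at 0 in every Th2 WT library and none in every library labelled Setdb1 KO. The 6 NK cell markers summed to 88.4 to 169.7 in libraries labelled Setdb1 KO and 0 to 22.5 in WT, with 1 of 3 tested higher and 0 lower, and with 2 markers at 0 in every library labelled Setdb1 KO and 3 in every WT library. Of all genes, 29.3% were higher and 24.7% lower in this comparison. The part of these cell types in the Cd160 value was not tested.

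**Figure D3:**
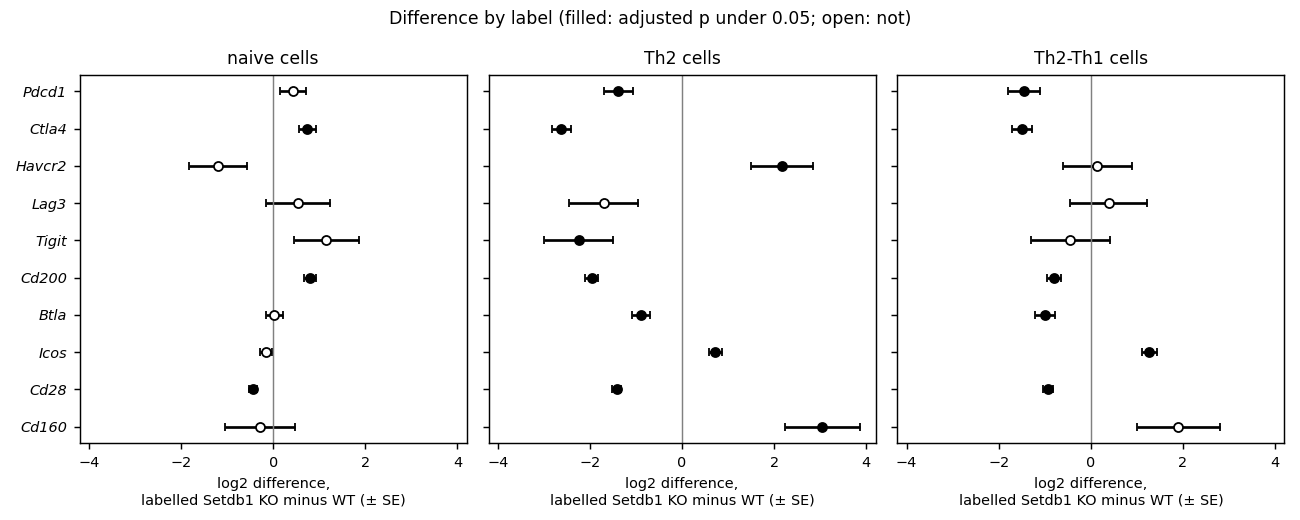
Log2 difference, libraries labelled Setdb1 KO minus WT, with its standard error from limma for each receptor gene in naive, Th2 and Th2-Th1 cells; filled points have an adjusted p under 0.05. Ctla4 lies at -2.62 in Th2 and -1.50 in Th2-Th1 cells, and Icos at 0.73 and 1.27.

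In Th2-Th1 cells 6 of the 10 genes were called, each in the direction it had in Th2 cells. Pdcd1, Ctla4, Cd200, Btla and Cd28 were lower and Icos higher in libraries labelled Setdb1 KO, that is 5 lower and 1 higher of 10, beside 16.1% of all genes lower and 17.6% higher. The median log2 difference was -0.62 for the receptors and 0.09 for all genes. Ctla4 values were 20294, 20582 and 14729 in libraries labelled Setdb1 KO against 51252 and 52121 in WT (log2 -1.50 ± 0.23, limma, adjusted p = 4.42e-05). Pdcd1 values were 2142, 2084 and 1707 in libraries labelled Setdb1 KO against 5329 and 5403 in WT (log2 -1.45 ± 0.35, limma, adjusted p = 0.0031). Both genes were separated by label in every library. Icos values were 9095, 6857 and 8757 in libraries labelled Setdb1 KO against 3346 and 3427 in WT (log2 1.27 ± 0.16, limma, adjusted p = 5.95e-06). Cd28 values were 9309, 8775 and 9626 in libraries labelled Setdb1 KO against 16253 and 18947 in WT (log2 -0.93 ± 0.10, limma, adjusted p = 1.62e-06). Cd200 values were 3543, 3626 and 3916 in libraries labelled Setdb1 KO against 6026 and 6786 in WT (log2 -0.79 ± 0.15, limma, adjusted p = 4.63e-04). None of these 3 genes overlapped between the labels. Btla had 1308, 1189 and 2112 in libraries labelled Setdb1 KO against 2863 and 3072 in WT (log2 -0.996 ± 0.22, limma, adjusted p = 0.00161), a call lost when only the Th2-Th1 libraries were fitted (adjusted p = 0.0612).

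The other 4 genes were not called in Th2-Th1 cells. Havcr2 had 10808, 12276 and 8258 in libraries labelled Setdb1 KO and 8808 and 9934 in WT, overlapping values with a log2 difference of 0.14 ± 0.75. Lag3 had 1523, 1161 and 739 in libraries labelled Setdb1 KO and 846 and 827 in WT (log2 0.39 ± 0.84), and its groups overlapped too. Tigit had 1396, 1446 and 1139 in libraries labelled Setdb1 KO and 1996 and 1615 in WT (log2 -0.44 ± 0.85). Cd160 had 18.6, 39.1 and 19.2 in libraries labelled Setdb1 KO and, from 10 reads in all, 4.73 and 6.97 in WT (log2 1.90 ± 0.90). The groups of Tigit and Cd160 did not overlap, and with standard errors of 0.75 to 0.90 on the log2 scale this fit leaves wide intervals around all 4 genes. Cd160 was called by DESeq2 (adjusted p = 0.0394) and in a limma fit of the Th2-Th1 libraries alone (0.0426).

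Naive cells differed less. Ctla4 and Cd200 were higher and Cd28 lower in naive libraries labelled Setdb1 KO, beside 7.43% of all genes higher and 3.45% lower. Cd200 values were 515, 452 and 470.0 in libraries labelled Setdb1 KO against 250.7, 296, 333 and 234 in WT (log2 0.79 ± 0.13, limma, adjusted p = 3.34e-04). Cd28 values were 5990, 5456 and 5879 in libraries labelled Setdb1 KO against 7725, 7952, 6849 and 8787 in WT (log2 -0.43 ± 0.09, limma, adjusted p = 0.00267), a call lost when only naive libraries were fitted (adjusted p = 0.0736). Neither gene's groups overlapped. Ctla4 values were 356, 336 and 165 in libraries labelled Setdb1 KO against 145, 179.5, 165 and 157 in WT. KO replicate 3 lay among the WT libraries, and the call (log2 0.74 ± 0.19, limma, adjusted p = 0.0145) rested on the other two. The call was lost without KO replicate 1 (log2 0.55, adjusted p = 0.122), without KO replicate 2 (0.59, adjusted p = 0.112), when naive libraries alone were fitted (adjusted p = 0.206) and without the 3 naive libraries that stood apart (log2 0.53, adjusted p = 0.358). Without those 3 libraries Cd200 (log2 0.90, adjusted p = 0.00416) and Cd28 (-0.49, adjusted p = 0.00824) were still called, where 4.11% of all genes were higher and 1.04% lower.

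Regulatory T cells express Ctla4, Tigit and Icos at high levels, so their markers were read beside the naive result. Of 10 regulatory T cell markers, 5 were higher and 0 lower in naive libraries labelled Setdb1 KO (Nrp1, Il2ra, Ikzf4, Capg and Tnfrsf18). Without the 3 libraries that stood apart these 5 and Itgae were higher and 0 lower. Of all genes, 7.43% were higher and 3.45% lower with all naive libraries, and 4.11% and 1.04% without those 3. The list summed to 4112 to 4376 in libraries labelled Setdb1 KO and 1866 to 2210 in WT, and no marker was at 0 in all libraries of either group. Foxp3, the defining factor, averaged 180 ± 19.9 (n = 3) in libraries labelled Setdb1 KO against 38.4 ± 19.7 (n = 4) in WT, a difference that was not called (limma, adjusted p = 0.0555). Tigit in naive cells had 40.9, 15.3 and 4.59 in libraries labelled Setdb1 KO against 0, 12.3, 18.1 and 8.50 in WT, overlapping values. Icos had 610, 720.3 and 555 in libraries labelled Setdb1 KO against 574, 819, 639 and 772 in WT, which overlapped as well. In Th2 libraries labelled Setdb1 KO, 3 of the regulatory T cell markers were higher and 3 lower, beside 29.3% and 24.7% of all genes. The list summed to 33730 to 41480 there against 66080 to 69700 in Th2 WT. What part these markers' cells had in the Ctla4 values was not tested.

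The other receptor genes of naive cells were not called. Btla, with 2788, 2656 and 3885 in libraries labelled Setdb1 KO and 2834, 2675, 2658 and 4162 in WT, differed by 0.02 ± 0.19 on the log2 scale. Pdcd1 ranged from 59.7 to 162 in libraries labelled Setdb1 KO and from 41.1 to 96.0 in WT, and Cd160 from 6.94 to 26.0 in libraries labelled Setdb1 KO and from 8.22 to 29.0 in WT. Havcr2 and Lag3 were at the detection limit. Havcr2 had 2 reads in the 3 libraries labelled Setdb1 KO together and 16 in the 4 WT libraries, and Lag3 had 9 in those labelled Setdb1 KO and 14 in WT. WT replicates 1 and 3, which stood apart, held 10 and 5 of those Havcr2 reads, and the log2 difference of -1.20 ± 0.63 in Havcr2 became 0.10 without the 3 libraries that stood apart (adjusted p = 0.269 with them and 0.986 without). Without those 3 libraries the log2 difference was 1.01 for Pdcd1, 1.45 for Lag3, 0.44 for Tigit, -0.45 for Icos, -0.02 for Btla and 0.72 for Cd160, none of them called. Leaving out WT replicate 2 alone gave a Havcr2 call (-1.87, limma, adjusted p = 0.027).

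Culture under Th2 conditions changed most of these genes in either genotype. In libraries labelled Setdb1 KO, 5 receptor genes were higher and 3 lower in Th2 than in naive cells, against 28.3% and 25.2% of all genes. In WT, 8 were higher and 2 lower, against 32.8% and 33.1%. In libraries labelled Setdb1 KO, Icos was 4.26 ± 0.14 higher on the log2 scale in Th2 than in naive cells (limma, adjusted p = 1.53e-14), Ctla4 3.82 ± 0.20, Tigit 3.68 ± 0.76 and Lag3 3.09 ± 0.75. Havcr2 was higher too, with 233 to 314 in Th2 against 0 to 1.39 in naive libraries (limma, adjusted p = 2.05e-08), and no fold is given because only 2 naive reads were seen. Btla was lower by -2.39 ± 0.20, Cd28 by -0.74 ± 0.09 and Cd200 by -0.49 ± 0.14 on the log2 scale. Pdcd1 was not called (0.61 ± 0.31, limma, adjusted p = 0.106), with 113 to 173 in Th2 and 59.7 to 162 in naive libraries, though without naive KO replicate 3 it was (1.00, adjusted p = 0.00729). Without the naive libraries that stood apart its difference was 0.29 (adjusted p = 0.483).

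In WT, Ctla4 was 7.19 ± 0.19 higher on the log2 scale (limma, adjusted p = 1.18e-16), with 21367 to 25434 in Th2 against 145 to 179.5 in naive libraries. Tigit was 7.08 ± 0.71 higher (adjusted p = 3.25e-08), Lag3 5.34 ± 0.70, Havcr2 3.93 ± 0.63, Icos 3.38 ± 0.13, Pdcd1 2.43 ± 0.29 and Cd200 2.26 ± 0.13, all by limma. The sizes for Lag3, Havcr2 and Tigit rest on few naive reads and so depend on the pseudocount, in either genotype. Tigit had 28 reads in the naive WT libraries together, 0 of them in replicate 1, and 48 in naive libraries labelled Setdb1 KO. Without the naive libraries that stood apart, the WT difference was 5.46 for Havcr2, 6.40 for Tigit and 5.86 for Lag3, all called. Btla was lower, by -1.49 ± 0.19 on the log2 scale, with 998 to 1177 in Th2 against 2658 to 4162 in naive libraries. A pair of WT calls changed with the settings. Cd28 (0.25 ± 0.09, limma, adjusted p = 0.0186) was lost with TMM scaling (adjusted p = 0.097), with edgeR (0.0647) and without the naive libraries that stood apart (log2 0.15, adjusted p = 0.158). It was lost too without naive WT replicate 3 (0.0767) and without Th2 WT replicate 3 (0.0636). Cd160 (-1.95 ± 0.76, limma, adjusted p = 0.0298) moved to -0.77 without Th2 WT replicate 1, which has no Cd160 read (adjusted p = 0.296), and was lost under 8 other settings.

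The difference between the genotypes in this step was tested as an interaction and was called for 9 of 10 genes, Lag3 being the exception, where 41.3% of all genes were called (7122 genes, of which 3575 had a positive interaction, and with TMM scaling 7436, of which 4500 did). It was -3.37 ± 0.28 for Ctla4, -2.76 ± 0.19 for Cd200 and 0.88 ± 0.20 for Icos on the log2 scale. Without the 3 naive libraries that stood apart, Lag3 was called (-3.15, adjusted p = 0.00597), and Btla (-0.87, adjusted p = 0.0687) and Cd160 (2.33, adjusted p = 0.193) were not. The Havcr2 interaction, 3.37 with all libraries, was 2.06 without those 3 (adjusted p = 0.0114). That of Tigit, -3.40 with all libraries, was -2.69 without them (limma, adjusted p = 0.0209). For Pdcd1 the interaction moved from -1.81 to -2.39 and for Icos from 0.88 to 1.18, both still called. Cd200 went in opposite directions, lower in Th2 libraries labelled Setdb1 KO and higher in Th2 WT libraries, each against its own naive libraries. Cd28 was lower in those labelled Setdb1 KO, while its small rise in WT (log2 0.25) lost its call under several settings.

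**Figure D4:**
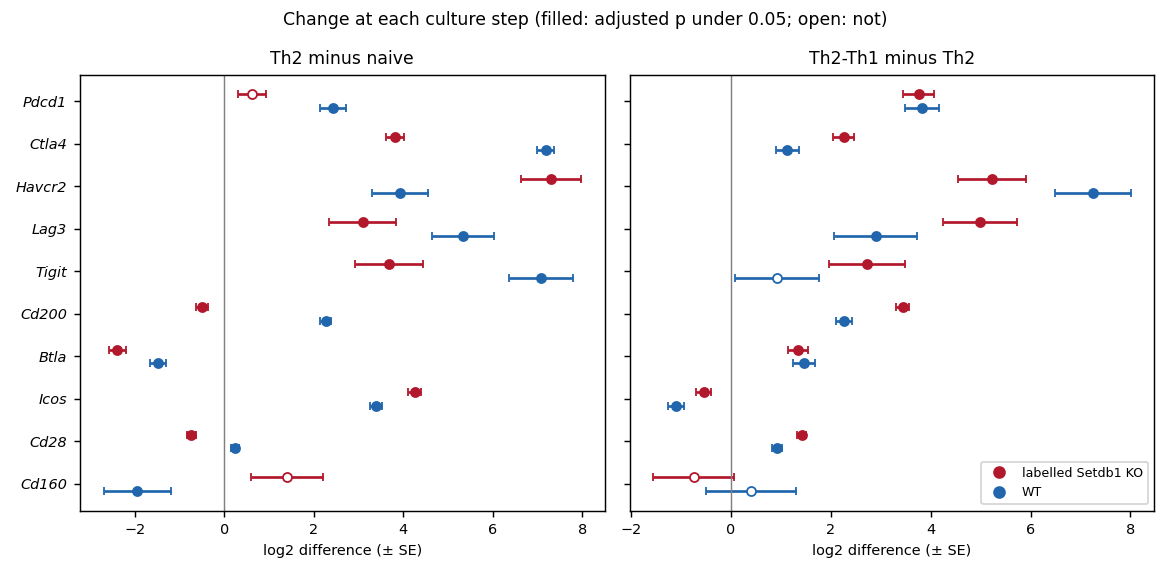
Log2 difference with standard error from limma, Th2 minus naive (left) and Th2-Th1 minus Th2 (right), in red for libraries labelled Setdb1 KO and in blue for WT; filled points have an adjusted p under 0.05. In the left panel Ctla4 lies at 3.82 in red and 7.19 in blue, and in the right panel at 2.26 and 1.13.

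After the move to Th1 conditions Pdcd1, Ctla4, Havcr2, Lag3, Cd200, Btla and Cd28 were higher in both genotypes. No group was kept for 2 more days under Th2 conditions. The Th1 conditions and the added time in culture therefore cannot be told apart in this step or in its interaction with genotype. A list of 9 Th2 markers summed to 10700 to 15180 in Th2 and 35140 to 75080 in Th2-Th1 libraries labelled Setdb1 KO. In WT they summed to 19900 to 20330 and 367700 to 418800, and in each genotype 4 were higher and 1 lower. Of 9 Th1 markers, 5 were higher and 1 lower in libraries labelled Setdb1 KO and 7 and 1 in WT. The shares of all genes follow below. What part these changes had in the receptor values was not tested. In libraries labelled Setdb1 KO, 8 receptor genes were higher in Th2-Th1 than in Th2 cells and Icos was lower (13% and 13.6% of all genes were higher and lower). In WT, 7 were higher and Icos was lower (25.8% and 24% of all genes). Havcr2 had the highest difference of the 10 in both, 5.23 ± 0.67 on the log2 scale in libraries labelled Setdb1 KO (limma, adjusted p = 7.06e-06) and 7.25 ± 0.75 in WT (adjusted p = 1.56e-07). In libraries labelled Setdb1 KO its values were 8258 to 12276 in Th2-Th1 against 233 to 314 in Th2 cells, and in WT 8808 to 9934 in Th2-Th1 against 42.3 to 87.3 in Th2 cells. Both genotypes thus started from separate Th2 levels of this TIM-3 gene and overlapped after the switch. In libraries labelled Setdb1 KO the log2 difference was 4.99 ± 0.75 for Lag3, 3.76 ± 0.31 for Pdcd1, 3.44 ± 0.14 for Cd200, 2.73 ± 0.76 for Tigit, 2.26 ± 0.20 for Ctla4, 1.42 ± 0.09 for Cd28 and 1.35 ± 0.20 for Btla. In WT it was 2.90 ± 0.83 for Lag3, 3.83 ± 0.35 for Pdcd1, 2.27 ± 0.15 for Cd200, 1.13 ± 0.23 for Ctla4, 0.92 ± 0.10 for Cd28 and 1.46 ± 0.22 for Btla. Tigit in WT, with 0.92 ± 0.85, was not called by limma (adjusted p = 0.4) but was by edgeR (0.0157) and in a limma fit of the WT Th2 and Th2-Th1 libraries alone (0.00872).

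Icos was lower after the switch, by -0.55 ± 0.14 in libraries labelled Setdb1 KO (limma, adjusted p = 0.00669) and -1.10 ± 0.16 in WT (adjusted p = 1.18e-05). The first of these was lost without Th2-Th1 KO replicate 2 (log2 -0.42, adjusted p = 0.0562). The interaction of genotype with the switch was called for Cd200 (1.17 ± 0.20), Ctla4 (1.13 ± 0.30) and Cd28 (0.49 ± 0.14), where 35.5% of all genes were called. The count is sensitive to the model: edgeR and DESeq2 each called 6 of 10. Havcr2 was among those added by both (log2 -2.06 with edgeR, adjusted p = 1.92e-04), as was Lag3 (2.10, adjusted p = 0.00374). The Cd28 interaction was lost without Th2-Th1 WT replicate 1 (0.38, adjusted p = 0.0792).

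Across the 18 libraries Pdcd1, Ctla4, Havcr2, Lag3, Tigit and Cd200 went together, with Pearson's r of log2 values between 0.812 and 0.966 for every pair of them. It was 0.97 for Ctla4 and Tigit, 0.96 for Pdcd1 and Cd200 and 0.92 for Havcr2 and Lag3. It was -0.84 for Icos and Btla. These are descriptions over 18 libraries that share 6 conditions. Among 10167 other genes with a mean of at least 50, the nearest patterns were Abcc1 and Hif1a for Ctla4 (0.991 and 0.989), Il3 and Mvp for Pdcd1 (0.973 and 0.970), Atf6 and Ssr2 for Icos (0.985 and 0.984), and Picalm and Nckap1 for Cd200 (0.983 and 0.974). The inhibitory phosphatase Ptpn6 (SHP-1), which binds the tails of several inhibitory receptors, and Cd5 were nearest to Btla (0.955 and 0.947). For Havcr2 they were Ahnak and Gap43 (0.975 and 0.974), for Lag3 Agpat4 and Gadd45b (0.972 and 0.969), for Tigit Cetn4 and Sgta (0.979 and 0.970), for Cd28 Sbds and Ppt2 (0.931 and 0.926), and for Cd160 Amd2 and Bmi1 (0.832 and 0.823).

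The ligands and counter-receptors of these receptors were measured in the same RNA libraries. Of 17 tested, 8 were higher and 4 lower in Th2 libraries labelled Setdb1 KO, 8 higher and 1 lower in Th2-Th1, and 6 higher and 0 lower in naive ones (4 and 0 without the 3 naive libraries that stood apart). Of all genes, 29.3% were higher and 24.7% lower in Th2, 17.6% and 16.1% in Th2-Th1, and 7.43% and 3.45% in naive libraries labelled Setdb1 KO, the background for this and each list that follows. Fgl1, which encodes a soluble LAG-3 ligand made mainly by liver, averaged 1932 ± 371 in Th2 libraries labelled Setdb1 KO against 2.58 ± 2.24 in Th2 WT (SD, n = 3 each; limma, adjusted p = 1.74e-08). It averaged 363 ± 108 (n = 3) in Th2-Th1 libraries labelled Setdb1 KO against 2.32 ± 3.29 (n = 2) in Th2-Th1 WT (limma, adjusted p = 9.12e-06). Lgals9, the galectin-9 gene, averaged 1784 ± 471 in Th2 libraries labelled Setdb1 KO against 224 ± 58.5 in Th2 WT (log2 2.99 ± 0.21, limma, adjusted p = 4.22e-10), and was higher in Th2-Th1 cells too (2.01 ± 0.23). Icosl, the ICOS ligand gene, was higher in libraries labelled Setdb1 KO in all 3 states, with log2 differences of 1.81 ± 0.30 in naive, 1.42 ± 0.32 in Th2 and 3.17 ± 0.36 in Th2-Th1 cells. Lta, which encodes lymphotoxin alpha, was also higher in all 3 states, by 0.87 ± 0.23 in naive, 1.09 ± 0.25 in Th2 and 2.94 ± 0.28 in Th2-Th1 cells, though not called in naive cells without the 3 libraries that stood apart (0.46, adjusted p = 0.473). Cd274, the PD-L1 gene, was higher in naive (0.94 ± 0.14) and Th2-Th1 cells (0.52 ± 0.17, limma, adjusted p = 0.0214) and lower in Th2 cells (-0.66 ± 0.15, adjusted p = 9.30e-04). Pvr, the TIGIT ligand gene, was lower in Th2 cells (-1.14 ± 0.17) and higher in Th2-Th1 cells (1.06 ± 0.19, limma, adjusted p = 2.37e-04). Cd200r1, the CD200 receptor gene, was lower in Th2 (-0.91 ± 0.18) and Th2-Th1 cells (-2.35 ± 0.20). Lgals9 and Lta belong to the list as ligands of TIM-3 and of the BTLA ligand HVEM, and both also have other receptors. Markers of myeloid cells summed to 4721 to 5520 in Th2 libraries labelled Setdb1 KO and 1366 to 1716 in Th2 WT. Of 8 such markers tested there, 1 was higher and 0 lower. Which cells the ligand RNA came from was not tested.

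Other co-receptors, signalling proteins and transcription factors were counted beside the same shares of all genes. Of 18 other T cell co-receptors, 6 were higher and 9 lower in Th2 libraries labelled Setdb1 KO, 6 higher and 7 lower in Th2-Th1, and 3 higher and 1 lower in naive ones (3 and 0 without the 3 that stood apart). Cd96, which shares PVR with TIGIT, was higher in Th2 cells (1364 ± 323 in libraries labelled Setdb1 KO against 101 ± 33.0 in WT, SD, n = 3 each; log2 3.77 ± 0.19). Tnfrsf9 (4-1BB) and Tnfrsf18 (GITR) were lower there (-3.21 ± 0.24 and -1.76 ± 0.11) and higher in naive cells (1.36 ± 0.22 and 0.46 ± 0.10). Tnfrsf9 was lower in Th2-Th1 cells as well (-1.08 ± 0.27, limma, adjusted p = 0.00363). Of 37 signalling genes that act close to these receptors, 16 were higher and 5 lower in Th2, 10 higher and 10 lower in Th2-Th1, and 5 higher and 1 lower in naive cells (2 and 0 without the 3 libraries that stood apart). Sh2d1a, the SAP adaptor of SLAM receptors, was lower in libraries labelled Setdb1 KO in naive (-0.57 ± 0.13), Th2 (-2.80 ± 0.14) and Th2-Th1 cells (-1.52 ± 0.16), the naive call being lost without those 3 libraries (-0.51, adjusted p = 0.162). Fyn, a Src family kinase, was higher in Th2 cells (1.57 ± 0.10), and Malt1, which couples the antigen receptor to NF-kappa B, was lower there (-2.34 ± 0.09) and in Th2-Th1 cells (-0.91 ± 0.10).

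Of 32 transcription factors of T cell activation and exhaustion, 10 were higher and 12 lower in Th2 libraries labelled Setdb1 KO, 11 higher and 6 lower in Th2-Th1, and 7 higher and 2 lower in naive ones (2 and 2 without the 3 that stood apart), beside the same shares of all genes. Tox, a factor needed for exhausted CD8 T cells, averaged 121 ± 52.8 in Th2 libraries labelled Setdb1 KO against 0.672 ± 1.16 in Th2 WT (SD, n = 3 each). Eomes, a T-box factor of cytotoxic and memory cells, averaged 108 ± 38.8 in libraries labelled Setdb1 KO against 1.66 ± 2.88 in WT (SD, n = 3 each). Tcf7 (log2 2.61 ± 0.21) and Ikzf2 (3.07 ± 0.37) were higher as well. Tbx21, the Th1 factor T-bet, was higher in Th2 (3.25 ± 0.73) and Th2-Th1 cells (3.70 ± 0.82), and Batf was lower in both (-1.56 ± 0.15 and -2.04 ± 0.16). Tox2 was lower in Th2-Th1 cells (-3.89 ± 0.99) and higher in Th2 cells (2.27 ± 0.88, limma, adjusted p = 0.0363). Markers of the 2 helper lineages moved with the label beside these genes. In Th2 cells 5 of 9 Th2 markers were lower and 0 higher, and 5 of 9 Th1 markers were higher and 1 lower. In Th2-Th1 cells 6 of 9 Th2 markers were lower and 0 higher, and 4 of 9 Th1 markers were higher and 0 lower. Their part in the receptor results was not tested. Of 8 follicular helper markers, whose cells carry PD-1 and ICOS, 5 were lower and 2 higher in Th2 libraries labelled Setdb1 KO and 5 lower and 0 higher in Th2-Th1. They summed to 1385 to 1512 in Th2 libraries labelled Setdb1 KO against 5829 to 5895 in Th2 WT, with Ascl2 at 0 in every Th2 library labelled Setdb1 KO.

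The chromatin around these genes was read from 13 peak lists on the mm10 (GRCm38) genome. They come from C57BL/6 Setdb1-/- and WT cells and, for H3K9me3 in Th2 cells only, from Suv39h1-/- mice with no background strain named. There is 1 list per group, mark and experiment, some of them made from pooled libraries per the peak names, so lists are described without a test. In mm10 the cluster on chromosome 1 holds Cd28 (chr1:60746388-60773359), Ctla4 (chr1:60909025-60915832) and Icos (chr1:60960773-61000322), and Pdcd1 lies farther along (chr1:94038305-94052553). Chromosome 16 holds Tigit (chr16:43626137-43665125), Btla (chr16:45223705-45252895) and Cd200 (chr16:45382111-45409060). Cd160 (chr3:96798763-96829351), Lag3 (chr6:124904359-124912434) and Havcr2 (chr11:46454931-46481255) stand apart from these. Peaks were counted within 50 kb of a gene, and for 7 of the 10 genes the start could be placed from RefSeq. The starts of Havcr2, Cd200 and Ctla4 lie in open chromatin in the Th2 lists of both genotypes. The 250 bases before them (RefSeq, GRCm38.p6, printed 5′ to 3′ on the strand of the gene) are shown as examples among the genes with large differences. Tigit, with a log2 difference of -2.25 in Th2 cells and an open start in both lists, also meets this description. Its stretch, which holds GATA, RUNX and NFAT letters, is not shown. Motifs were searched by their letters on both strands: AP-1 as TGANTCA (6.75% of the 250-base stretches before 32851 starts hold it), RUNX as TGTGGT (14%), GATA as AGATAA (9.99%), T-box as AGGTGT (11.8%), CRE as TGACGT (6.47%) and NFAT as GGAAA (55.6%). Capitals mark the matches other than NFAT, and none of them overlaps another. The NFAT letters are also found from base 107 of the Ctla4 stretch.

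Havcr2, chr11:46454681-46454930, plus strand, with an AP-1 match from base 51 of the stretch and a RUNX match from base 205:
Havcr2: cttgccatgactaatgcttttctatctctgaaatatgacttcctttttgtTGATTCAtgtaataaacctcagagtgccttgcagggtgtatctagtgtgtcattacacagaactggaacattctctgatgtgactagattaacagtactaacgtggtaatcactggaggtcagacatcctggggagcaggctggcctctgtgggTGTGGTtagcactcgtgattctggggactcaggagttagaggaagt
Cd200, chr16:45409054-45409303, minus strand, with a CRE match on the opposite strand from base 50 and a GATA match from base 132:
Cd200: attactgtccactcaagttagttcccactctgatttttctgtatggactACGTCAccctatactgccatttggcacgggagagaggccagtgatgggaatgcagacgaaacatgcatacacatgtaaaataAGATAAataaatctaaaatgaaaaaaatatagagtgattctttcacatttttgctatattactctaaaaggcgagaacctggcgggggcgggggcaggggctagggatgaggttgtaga
Ctla4, chr1:60908775-60909024, plus strand, with a T-box match from base 233:
Ctla4: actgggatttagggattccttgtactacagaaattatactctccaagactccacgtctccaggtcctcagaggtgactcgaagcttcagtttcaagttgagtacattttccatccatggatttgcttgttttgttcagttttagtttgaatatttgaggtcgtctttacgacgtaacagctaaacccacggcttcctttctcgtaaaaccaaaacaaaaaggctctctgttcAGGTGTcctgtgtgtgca

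A match of letters is a description and not a bound site. Each of the 2 Th2 WT lists of H3K4me1 had 4 peaks over Havcr2, against none in the naive WT list, where the nearest lay 5880 bases away. Over the 250 bases before Havcr2 the Th2 lists of both genotypes held ATAC, H3K27ac and H3K4me1 peaks. Over those of Cd200, the lists labelled Setdb1 KO had no H3K27ac or H3K4me1 peak and the Th2 WT lists had both, although within 1 kb of that start both marks had peaks in the lists labelled Setdb1 KO too.

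Open chromatin near the receptor genes was mostly a subset in the list labelled Setdb1 KO. Of its 109 ATAC peaks within 50 kb of the 10 genes, 98 (89.9%) overlapped a peak of the WT list, and of the 159 WT peaks, 96 (60.4%) overlapped one of the list labelled Setdb1 KO. The same shares over the genome were 90.2% and 56.6%, so the receptor genes are near the whole. The lists differ in size, with 58523 peaks labelled Setdb1 KO and 92129 in WT. Around Ctla4 there were 9 peaks in the list labelled Setdb1 KO and 20 in WT, with 12 WT peaks not shared. Around Icos there were 14 in the list labelled Setdb1 KO and 29 in WT, with 15 WT peaks not shared. The windows of Ctla4 and Icos overlap, so some peaks count for both. Cd200, which like Ctla4 was lower in RNA, had 10 peaks in the list labelled Setdb1 KO and 9 in WT, 5 of each shared. Active enhancer chromatin (H3K27ac) gave 123 peaks labelled Setdb1 KO and 81 WT peaks, of which 61.8% and 82.7% were shared, against 71% and 77.9% over the genome. For H3K4me1, a mark of enhancers, there were 189 peaks labelled Setdb1 KO and 147 in WT, 74.6% and 89.1% of them shared, against 69.1% and 79% over the genome.

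H3K9me3 differed between lists far more in number, and the receptor genes followed the lists. In Th2 cells 1 of 10 genes had an H3K9me3 peak within 50 kb in the list labelled Setdb1 KO and 8 of 10 in the WT list, against 4.96% and 56.7% of 15188 tested genes that could be placed. In the Suv39h1-/- list it was 9 of 10 against 91.5%. In naive cells it was 1 of 10 in the list labelled Setdb1 KO and 4 of 10 in WT, against 6.47% and 55.2%. The lists held 1708, 43404 and 12233 peaks in Th2 cells labelled Setdb1 KO, Suv39h1-/- and WT, and 1163 and 9659 in naive cells labelled Setdb1 KO and WT. Pdcd1 had no H3K9me3 peak within 50 kb in any of the 5 lists, the nearest in Th2 WT being 246555 bases away.

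The WT Th2 peaks lay inside 3 of the genes. Havcr2 held 3 of them, at chr11:46462851-46463600, chr11:46471301-46472900 and chr11:46474701-46477800, the last of these 3100 bases long and with a score above that of 98.6% of the peaks of its list. Icos held 1 at chr1:60964201-60966500, and Tigit 1 at chr16:43643751-43644250. None of the 3 genes held an H3K9me3 peak in either list labelled Setdb1 KO or in naive WT cells. In RNA Havcr2 and Icos were higher and Tigit lower in Th2 libraries labelled Setdb1 KO, so the 3 genes did not share a direction. Before Ctla4, the Th2 WT list had 3 peaks within 50 kb, and the one nearest to the gene, at chr1:60900751-60902700, scored above 96.3% of its list.

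**Figure D5:**
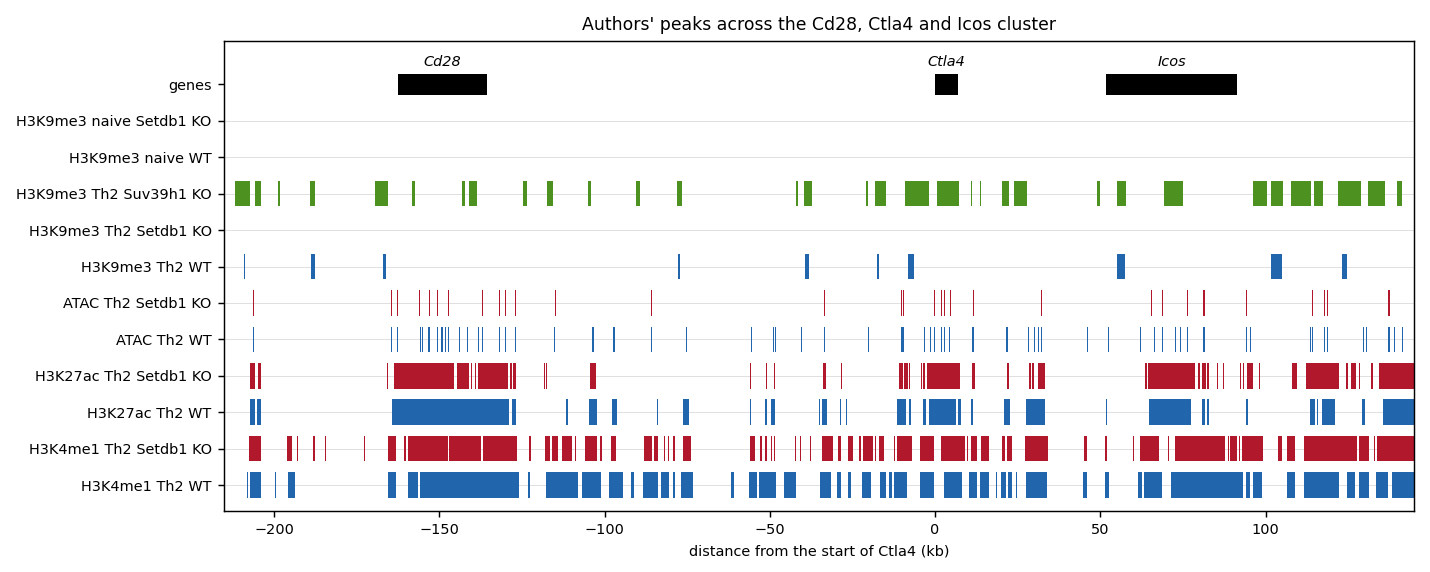
Peaks of the authors' lists across the cluster of Cd28, Ctla4 and Icos, against distance from the start of Ctla4 in kb; each bar is a peak to scale, red for lists labelled Setdb1 KO, green for Suv39h1-/- and blue for WT. H3K9me3 peaks are seen in Th2 cells of Suv39h1-/- (33) and WT (10) mice and in none of the other 3 H3K9me3 lists.

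Over the whole cluster of Cd28, Ctla4 and Icos, from 50 kb before the first gene to 50 kb after the last, 354 kb in all, the Th2 list labelled Setdb1 KO held no H3K9me3 peak, the Suv39h1-/- list 33 (89.2 kb) and the Th2 WT list 10 (14.1 kb). Both naive lists held none. In the same stretch ATAC peaks numbered 31 labelled Setdb1 KO and 62 in WT (7.47 and 17.9 kb), and H3K27ac peaks 47 and 34 over 105 kb in each. The RNA of the 3 genes differed in opposite directions over this shared stretch, with Ctla4 and Cd28 lower and Icos higher in libraries labelled Setdb1 KO.

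The single H3K9me3 peak near a receptor gene in each list labelled Setdb1 KO lay at the same place. It was 15609 bases from Lag3 at chr6:124879401-124888750 in naive cells and 15959 bases away at chr6:124879551-124888400 in Th2 cells, and it covered one end of Cd4 (chr6:124864693-124888247), the neighbour of Lag3. It was 9350 and 8850 bases long, longer than 96.5% and 97.4% of the peaks of its list, and no peak of either WT list overlapped it. A Suv39h1-/- peak at chr6:124888751-124889900 adjoins its end in naive cells. The highest fold of any Th2 peak within 50 kb of Lag3, a window with 6 other protein-coding genes, was read for the other marks. In the list labelled Setdb1 KO it was 30.48 against 12.39 in WT for H3K27ac. It was 9.977 against 5.184 for H3K4me1 and 5.938 against 5.216 for ATAC. Such values went either way between genes, for H3K27ac 10.1 against 6.006 near Cd200 and 10.91 against 16.34 near Havcr2. Each rests on 1 list, and no background over all genes was computed. What gives rise to the H3K9me3 peak over Cd4 was not tested.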

How the data were processed

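RNA was counted per gene, and the deposited signal values are, per the labels and the values themselves, read counts divided by 1 size factor per library. The submitters' processing notes name cutadapt 1.3, TopHat2 2.0.5, BWA 0.7.10, MACS2 2.1.0, DESeq and the mm10 genome. Whole reads were recovered from 100% of values above 0 (tolerance 0.01 reads). Log2(value + 1) was fitted with limma 3.58.1 in R 4.3.3 over all 18 libraries together, with 12 residual degrees of freedom, without covariates, for the 17254 genes that reached 10 in 2 or more libraries. Calls have a Benjamini-Hochberg adjusted p under 0.05 over these genes. edgeR 4.0.16 (quasi-likelihood) and DESeq2 1.42.0 on recovered reads were alternatives, with TMM scaling, a pseudocount of 5, no filter (32063 genes), fits of the compared groups alone, a replicate block, thinning to equal depth and leaving out each library. The fits were tested on simulated data. An alternative without the 3 naive libraries that stood apart, also for the list counts, was chosen after seeing the data.

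Of the 13 deposited peak lists, those of ATAC, H3K27ac and H3K4me1 have the MACS2 layout, with a score and a fold ratio over background by the authors. The H3K9me3 lists carry a deposited score for which the sources used here name neither caller nor scale. Scores served only to rank peaks within a list. Some lists pool libraries, per the peak names in them. Peaks shared at least 1 base. Of 17223 tested gene names, 15188 (88.18%) were placed on the genome from RefSeq. Promoters were found for 7 of the 10 receptor genes, and those of Icos, Cd28 and Lag3 are not used here.

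The receptor genes and the marker and pathway lists were chosen with earlier results of these data known. From each pathway list, up to 4 genes per comparison are named, those with the largest absolute log2 difference among genes called, with a mean of at least 50 in 1 group and no overlap between groups. Foxp3, Ascl2, Itgae and the called regulatory T cell markers were named after their values were seen. For similar patterns, the 2 genes with the highest correlation are named.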

Additional observations from a re-analysis of the deposited data

Results flagged for a closer look

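The effect of the Setdb1 KO label differed between naive and Th2 cells, by a test of the interaction itself (limma, Benjamini-Hochberg adjusted over all genes), in 9 of the receptor genes. Of all genes, 41.3% were called in this test. On the log2 scale, the difference in Th2 cells minus that in naive cells was -3.403 for Tigit (adjusted p = 0.0126), -3.365 for Ctla4 (1.9e-08), -2.756 for Cd200 (1.87e-09), -1.812 for Pdcd1 (0.00202), -0.985 for Cd28 (4.93e-06) and -0.9049 for Btla (0.0113). It was positive for Havcr2 (3.367, adjusted p = 0.00623), Cd160 (3.337, 0.0207) and Icos (0.8773, 0.00133). Cd200 was called in opposite directions, higher in naive and lower in Th2 libraries labelled Setdb1 KO. Ctla4 was too with all libraries, but its naive call was lost without naive KO replicate 1 (adjusted p = 0.122), naive KO replicate 2 (0.112) or the 3 naive libraries that stood apart (0.358). The Cd160 interaction was lost without naive KO replicate 2 (adjusted p = 0.0612), Th2 KO replicate 1 (0.0658) or Th2 WT replicate 1 (0.0568). Without the 3 naive libraries that stood apart, the Cd160 (limma, adjusted p = 0.193) and Btla (0.0687) interactions were lost too, and that of Lag3 was gained (0.00597). Those of Tigit and Havcr2 were then -2.691 and 2.062 and still called (limma, adjusted p = 0.0209 and 0.0114).

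The effect of the label also differed between Th2-Th1 and Th2 cells in 3 of the receptor genes, where 35.5% of all genes were called. The difference in Th2-Th1 minus that in Th2 cells was 1.171 for Cd200 (limma, adjusted p = 1.67e-04), 1.125 for Ctla4 (0.00678) and 0.4925 for Cd28 (0.00962), genes that were lower in libraries labelled Setdb1 KO in both states. The Cd28 call was lost without Th2-Th1 WT replicate 1 (limma, adjusted p = 0.0792).

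Btla in naive WT replicate 4 stood far from the other 3 naive WT libraries, at 4162 against 2658 to 2834. Naive KO replicate 3 was also above its group, at 3885 against 2788 and 2656. The check was run only on groups of 4 libraries, which naive WT alone has. The threshold for such gaps (Dixon's test at the 95% level) is passed by chance in about 1 in 20 groups.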

How the results depend on the processing

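Over the 90 results on single receptor genes and 1420 settings tried, none turned its direction while called, 28 settings lost a call and 32 gained one, in 20 of the results. The calls of Ctla4, Cd200, Cd28, Pdcd1, Tigit, Btla, Icos and Havcr2 in Th2 cells held under every setting run. Low reads limit Havcr2, Lag3 and Tigit in naive cells and Cd160 throughout, and 2 Th2-Th1 WT libraries limit that comparison. Intervals cover the spread of libraries only. The cause of the changes was not tested.

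Genes called in naive cells numbered 1877, 407 when the naive libraries were fitted alone and 890 without the 3 that stood apart, and 1076 to 2499 with 1 library left out. Receptor genes called there numbered 3, and 1 in the fit of naive libraries alone. Genes called in Th2-Th1 cells numbered 5810, and 3847 to 5181 with 1 library left out, lowest without WT replicate 2. For the interaction with the Th1 switch, 3 receptor genes became 6 with edgeR, 6 with DESeq2, 7 with a pseudocount of 5, 7 when only those groups were fitted and 5 with the replicate block. Deviations of same-numbered libraries from their group means had correlations of -0.411 to 0.13. With so few libraries per group, this cannot tell whether the numbers pair them. With the replicate block Lag3 in Th2 cells was called (-1.70, adjusted p = 0.0195), as were the Lag3 (0.042) and Icos (0.0362) interactions with the switch, and Cd160 in WT Th2 against naive cells was lost (0.0622). Receptor genes with an H3K9me3 peak within 10 kb in place of 50 kb numbered 0 of 1 in naive cells labelled Setdb1 KO, 2 of 4 in naive WT, 0 of 1 in Th2 cells labelled Setdb1 KO and 5 of 8 in Th2 WT. The Suv39h1-/- list kept 9 of 9. With peaks at or above the median score, naive WT had 2. No share of all genes was counted at either setting, so these counts have no background.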
